A study of Mus musculus with 8 samples.

Results

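The immediate early genes described here are Fos, Fosb, Junb, Egr1, Arc, Npas4, Nr4a1, Ier2, Dusp1 and Btg2, in dorsal root ganglia (DRG) of E18.5 mouse embryos. They were taken by symbol from the Ensembl gene IDs of the count files, which gave 10 genes of 55414 listed IDs, and each symbol matched 1 ID. All 10 passed the filter on low counts that left 17721 genes for testing. Messenger RNA of whole ganglia was sequenced from 8 libraries. AD1 OE embryos (AdvillinCre/+;Rosa26Dach1/+, n = 4) carried 1 Cre allele at Advillin, active in sensory neurons, and a Rosa26 allele from which Cre releases Dach1 and EGFP. Control embryos (Advillin+/+;Rosa26Dach1/+, n = 4) had the same unrecombined Rosa26 allele and no Cre, so Cre itself and the loss of 1 intact Advillin copy accompany Dach1 expression in every AD1 OE library. The mice were on a mixed C57Bl/6J and CD1 background, and AD1 OE pups die around birth. The labels give the cells as neurons and glia. They do not state how many embryos went into a library or whether embryos shared a litter, so the p-values below measure the spread between these samples.

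Immediate early genes are transcribed within minutes of a stimulus from factors already present in the cell, without new protein synthesis. In neurons, membrane depolarization and neurotrophins reach them through calcium and MAP kinase signalling, which acts on CREB at cAMP response elements (CRE) and on SRF at CArG boxes. Many encode transcription factors that start a later wave of genes, and others encode proteins that end the signal. Their transcripts are short-lived. In ganglia, nerve injury, enzymatic dissociation and handling of the tissue are known to induce them.

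The libraries held between 22339059 and 44025625 counts in genes. Dach1 was 95.9 ± 5.28 CPM (counts per 1000000 of the TMM-scaled library size) in AD1 OE, against 32.6 ± 1.64 in Control, as mean ± SD with n = 4 here and for all group values below. Avil, which carries the Cre, was 464 ± 12.0 and 892 ± 35.1 CPM. Both follow the labels. Summed neuronal markers (Tubb3, Isl1, Prph, Nefl, Snap25 and Rbfox3) lay between 5978 and 6522 CPM in AD1 OE and between 6376 and 6544 CPM in Control. AD1 OE replicates 1, 2 and 4 lay below every Control library, and 0 of these 6 genes were called. Summed glial markers lay between 970 and 1226 CPM in all libraries. None of the neuronal and glial markers was at 0 in any library. Libraries differed in other tissue. Spinal cord genes (Olig1, Olig2 and Slc6a5 among 5) summed to between 1.79 and 3.98 CPM in AD1 OE, and in Control to 18.3 in replicate 1, 8.76 in replicate 4 and at most 3.54 in the remaining pair, with Mnx1 at 0 in 6 libraries. Skeletal muscle genes were highest in AD1 OE replicate 3, at 385 CPM against 72.8 to 252 elsewhere, and erythroid genes in AD1 OE replicate 2, at 804 CPM against 224 to 404. Summed markers of fibroblasts, of which 0 of 5 were called, were 4107 to 4546 CPM in AD1 OE and 3489 to 4203 CPM in Control, lowest in Control replicate 2. Y-linked transcripts were found in AD1 OE replicates 1, 2 and 4 and in Control replicate 4, and Xist in the other 4 libraries, so sex is unevenly spread over the genotypes. In bulk tissue, fewer cells of a type and less RNA per cell cannot be told apart. The study counted stained neurons on sections of E18.5 ganglia and reported suitable numbers of the main neuron subtypes in AD1 OE.

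None of the 10 immediate early genes was called different between AD1 OE and Control. Fos and Fosb lay higher, and Arc lower, in every AD1 OE library than in any Control library, and the remaining 7 overlapped between the genotypes. A gene was called at an adjusted p under 0.005 with an absolute log2 fold change over 0.25, in edgeR's quasi-likelihood test with Benjamini-Hochberg adjustment over all tested genes. Over all 17721 genes this rule called 2.57%, with 0.784% higher and 1.78% lower in AD1 OE. The count of members called was also 0 with DESeq2 and with limma-voom. At an adjusted p under 0.05 without a fold limit, 1 of 10 members (Fos) passed, against 6.55% of all genes. At an unadjusted p under 0.05, 3 of 10 passed (Fos, Fosb and Arc), against 18.6% of all genes. The groups did not overlap for those same 3 of 10 members, against 13.0% of all genes. Across the 10 members the median log2 fold change was 0.04, with 5 values above 0, and the median over all tested genes was 0.0018.

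**Figure D1:**
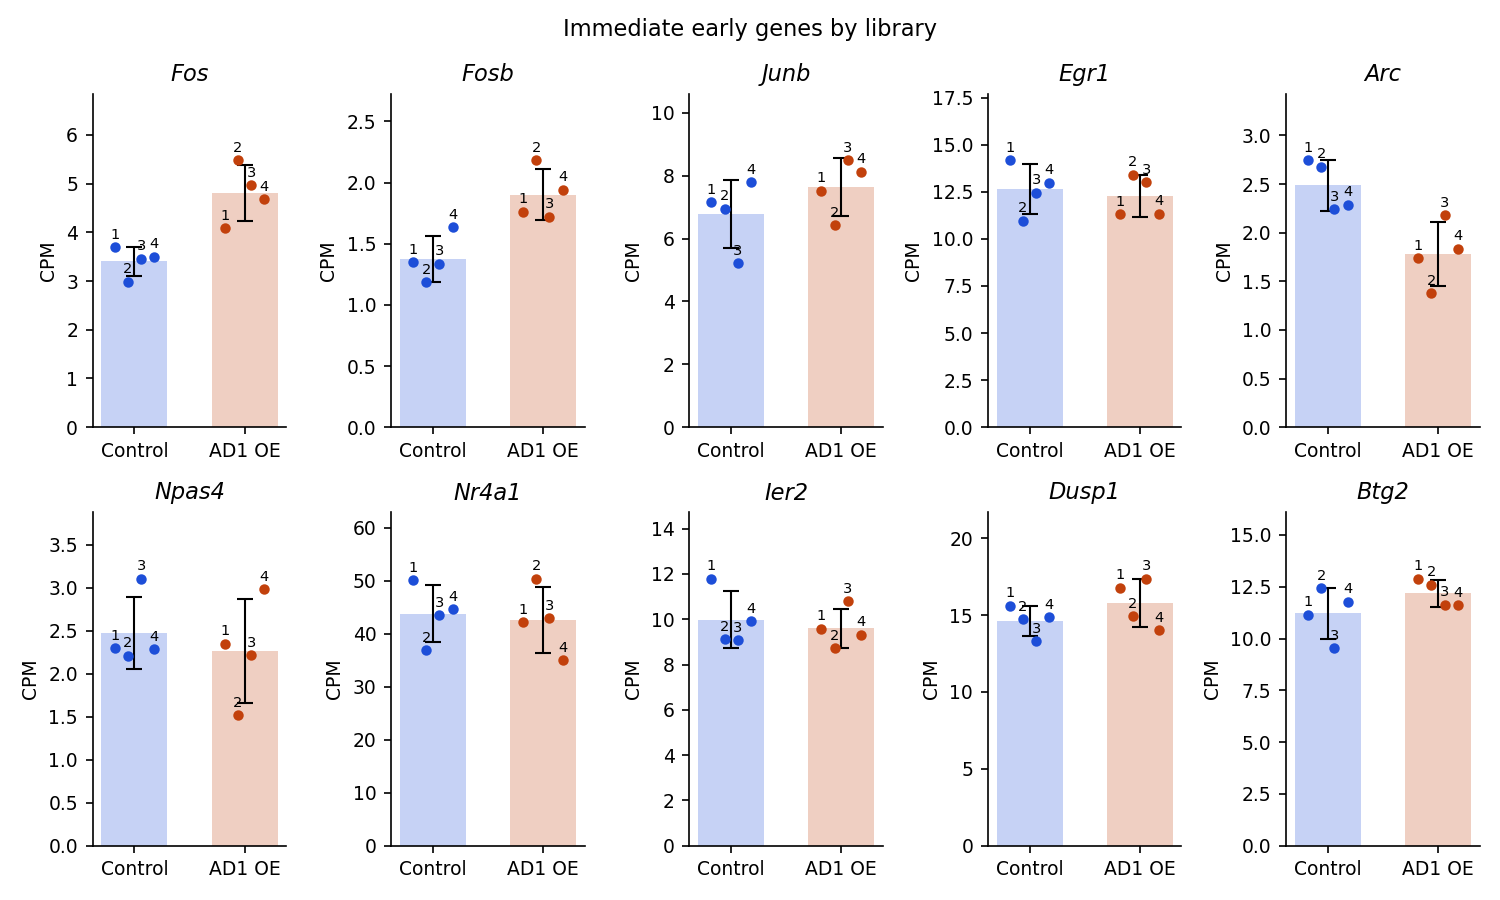
CPM (y axis, from 0 in each panel) of the 10 immediate early genes in the 4 Control (blue) and 4 AD1 OE (orange) libraries. Points are libraries with their replicate number, bars are group means and error bars are SD. The AD1 OE points of Fos and Fosb lie above all Control points, those of Arc lie below, and the points of the other 7 genes overlap.

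The first group comprises subunits of AP-1, the dimeric leucine zipper factor formed by a Fos and a Jun protein. Fos encodes its best-known inducible subunit and is the usual histological marker of recently active neurons. It measured 4.09, 5.48, 4.97 and 4.68 CPM in AD1 OE replicates 1 to 4 and 3.69, 2.99, 3.46 and 3.50 CPM in Control replicates 1 to 4. All AD1 OE libraries were higher than all Control libraries, the nearest being AD1 OE replicate 1 and Control replicate 1. The fitted ratio was 1.40 (log2 fold change 0.49 ± 0.12 SE, 95% interval 0.23 to 0.75), with an adjusted p of 0.0302 by edgeR, which misses the threshold of 0.005. With DESeq2 the adjusted p was 0.0169. These values rest on 82 to 181 counts per library.

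Whether Fos passed 0.05 depended on the libraries entered. Leaving out 1 library at a time gave log2 fold changes between 0.42 and 0.57 with adjusted p between 0.0217 and 0.0980, and it was under 0.05 only without AD1 OE replicate 1 or without Control replicate 1. Adding the sex score to the fit gave a log2 fold change of 0.49 and an adjusted p of 0.0970. Within the libraries with Y-linked transcripts, Fos averaged 4.75 CPM in 3 AD1 OE libraries and was 3.50 CPM in the only Control library. Within those with Xist, it was 4.97 CPM in the 1 AD1 OE library and averaged 3.38 CPM in 3 Control libraries. AD1 OE was higher within both sexes, and the difference within a sex was not tested. Without Control replicates 1 and 4, the libraries highest in spinal cord genes, the log2 fold change was 0.57. Control replicate 2, the lowest library for Fos, was also the lowest in summed fibroblast markers, and their part in the difference was not tested.

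Fosb encodes the close relative of Fos that also gives rise to the long-lived deltaFosB protein by splicing, a difference that counts per gene cannot show. Its CPM were 1.76, 2.18, 1.72 and 1.94 in AD1 OE replicates 1 to 4 and 1.35, 1.18, 1.34 and 1.64 in Control replicates 1 to 4. The lowest AD1 OE library, replicate 3, was just above the highest Control library, replicate 4. The ratio was 1.37 (log2 fold change 0.45 ± 0.16 SE, 95% interval 0.11 to 0.80, adjusted p 0.133, edgeR). Only 30 to 78 counts per library stand behind it. A fit with the sex score gave a log2 fold change of 0.31, and among libraries with Y-linked transcripts AD1 OE averaged 1.96 CPM and the Control library had 1.64 CPM. Among those with Xist the AD1 OE library had 1.72 CPM and Control averaged 1.29 CPM.

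Junb encodes a Jun partner that is induced together with Fos. It ranged from 6.42 to 8.49 CPM in AD1 OE and from 5.23 to 7.79 CPM in Control. The ranges overlapped over most of their extent, and the log2 fold change was 0.17 (95% interval -0.10 to 0.44, adjusted p 0.522). In the reference annotation, exon bases of Junb are shared with Prdx2 on the opposite strand, and since the strand setting of the counting is not given, this value is uncertain.

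Regulatory sequence upstream of the start was at hand for 7 of the 10 members in RefSeq's promoter table for GRCm38.p6, an older build than the GRCm39 of the counts. Searched were the 250 bases before each start, on both strands, for the CRE core TGACG, the full palindromic CRE TGACGTCA (which contains the core on each strand), the AP-1 site TGANTCA, the TATA motif TATAA and the CArG box. All 7 members (Fos, Fosb, Junb, Npas4, Nr4a1, Dusp1 and Btg2) held a CRE core, compared with 17.8% of the table's 32851 promoters and 24.4% of the promoters of tested genes. The full CRE occurred in Dusp1 and Btg2, and in 1.55% of all promoters and 2.37% of those of tested genes. TATAA was found upstream of Fos and Npas4, and in 22.8% of all and 13.3% of those of tested genes. Neither an AP-1 site (6.75% of all, 4.63% of tested genes) nor a CArG box (1.47% and 1.19%) was found in the window for any of the 7. Sites farther upstream were not searched, and no sequence was at hand for Arc, Egr1 and Ier2. GC content of the 7 windows lay between 58.4% and 74.4%, above the median of 52.4% over all promoters. The core TGACG contains CG, and the shares above were not matched for GC content. Its part in the difference was not tested. A match describes letters and is not evidence that a factor binds there.

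Shown first are Fos and Fosb, the 2 members that were higher in every AD1 OE library, at chr12:85473640-85473889 (plus strand) and chr7:19310046-19310295 (minus strand). Capitals mark the CRE core on either strand. In Fos the matches begin 129 and 66 bases before the start, and in Fosb 60 bases before it.
Fos: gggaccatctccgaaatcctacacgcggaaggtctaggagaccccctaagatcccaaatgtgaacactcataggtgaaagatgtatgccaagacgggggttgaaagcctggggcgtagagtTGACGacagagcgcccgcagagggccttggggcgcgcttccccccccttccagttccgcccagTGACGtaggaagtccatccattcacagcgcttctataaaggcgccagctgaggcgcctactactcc
Fosb: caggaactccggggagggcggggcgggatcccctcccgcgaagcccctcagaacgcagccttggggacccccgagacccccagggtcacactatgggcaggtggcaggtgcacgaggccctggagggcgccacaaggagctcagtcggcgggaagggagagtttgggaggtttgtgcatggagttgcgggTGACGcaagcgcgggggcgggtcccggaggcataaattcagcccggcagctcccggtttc
For comparison, 3 members with overlapping groups follow: Nr4a1, the most abundant (chr15:101266596-101266845, plus strand), with 4 core matches, and Dusp1 (chr17:26508473-26508722, minus strand) and Btg2 (chr1:134079156-134079405, minus strand), each with the full CRE.
Nr4a1: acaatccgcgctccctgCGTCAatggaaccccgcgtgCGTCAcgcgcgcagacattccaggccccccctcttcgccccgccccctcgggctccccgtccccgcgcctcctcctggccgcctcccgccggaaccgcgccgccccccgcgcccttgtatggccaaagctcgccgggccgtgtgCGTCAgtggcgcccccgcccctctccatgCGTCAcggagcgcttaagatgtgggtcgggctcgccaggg
Dusp1: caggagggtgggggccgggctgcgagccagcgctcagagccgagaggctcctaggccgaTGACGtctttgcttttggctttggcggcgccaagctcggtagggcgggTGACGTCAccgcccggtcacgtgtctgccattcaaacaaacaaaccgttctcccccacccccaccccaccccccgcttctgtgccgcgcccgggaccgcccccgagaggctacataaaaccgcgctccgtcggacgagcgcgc
Btg2: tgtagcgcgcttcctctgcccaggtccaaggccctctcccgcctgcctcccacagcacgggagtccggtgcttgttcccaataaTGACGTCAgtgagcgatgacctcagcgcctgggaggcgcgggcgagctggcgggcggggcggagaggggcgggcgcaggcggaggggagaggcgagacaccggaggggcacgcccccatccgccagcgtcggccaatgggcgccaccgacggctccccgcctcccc
Because all 7 members with a sequence held the core, it could not divide the 2 that lay higher in AD1 OE from those that overlapped. Arc, which lay lower in AD1 OE, had no sequence at hand. Among 74 related genes with a promoter in the table, described further below, 35 held the core.

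The groups of the other inducible transcription factors overlapped, and the estimate for Npas4 was too imprecise to show whether it differed. Egr1 encodes a zinc finger factor downstream of MAP kinases. It was 11.3 to 13.4 CPM in AD1 OE and 11.0 to 14.2 CPM in Control, with a log2 fold change of -0.05 (95% interval -0.24 to 0.15, adjusted p 0.844, edgeR). Npas4 encodes a bHLH-PAS factor that responds rather selectively to calcium influx in excited neurons. Its CPM were 2.35, 1.51, 2.22 and 2.99 in AD1 OE and 2.29, 2.21, 3.10 and 2.29 in Control, replicates 1 to 4. Control replicate 3 and AD1 OE replicate 4 were high and AD1 OE replicate 2 was low, and the groups overlapped throughout. The log2 fold change was -0.11 with a wide interval (95%, -0.53 to 0.31, adjusted p 0.826), at 34 to 104 counts per library, and its sign turned without AD1 OE replicate 2 or without Control replicate 3.

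Nr4a1 encodes an orphan nuclear receptor (Nur77) induced by activity and growth factors, and it was the most abundant of the 10. It measured 42.1, 50.4, 43.0 and 35.0 CPM in AD1 OE replicates 1 to 4 and 50.2, 36.9, 43.5 and 44.6 CPM in Control replicates 1 to 4. Both groups spanned nearly the same range, and the log2 fold change was -0.04 (95% interval -0.27 to 0.19, adjusted p 0.893). Ier2, whose product is a small nuclear protein, measured 8.73 to 10.8 CPM in AD1 OE and 9.08 to 11.8 CPM in Control (log2 fold change -0.05, 95% interval -0.26 to 0.16, adjusted p 0.846). The signs of Egr1, Nr4a1 and Ier2 changed when single libraries were left out, so no direction is given for them.

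Dusp1 and Btg2 act to end a response. Dusp1 encodes a phosphatase of MAP kinases, and Btg2 an antiproliferative protein that promotes messenger RNA deadenylation. Dusp1 ranged from 14.0 to 17.4 CPM in AD1 OE and from 13.3 to 15.6 CPM in Control (log2 fold change 0.11, 95% interval -0.06 to 0.29, adjusted p 0.507). Exon bases of Dusp1 overlap Ergic1 on the opposite strand in the reference annotation. Btg2 ranged from 11.6 to 12.9 CPM and from 9.55 to 12.4 CPM (log2 fold change 0.12, 95% interval -0.07 to 0.30, adjusted p 0.518). For both, the ranges of AD1 OE and Control overlapped.

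Arc, the only member that is a direct effector at the synapse, went the other way. It encodes a capsid-forming protein that promotes removal of AMPA receptors, and its messenger RNA travels into dendrites. CPM were 1.74, 1.38, 2.18 and 1.83 in AD1 OE replicates 1 to 4 and 2.74, 2.68, 2.24 and 2.29 in Control replicates 1 to 4. Each AD1 OE library was below each Control library, AD1 OE replicate 3 only narrowly. The ratio was 0.721 (log2 fold change -0.47 ± 0.16 SE, 95% interval -0.82 to -0.13, adjusted p 0.118, edgeR) at 31 to 86 counts per library. A fit with the sex score gave a log2 fold change of -0.33. Among libraries with Xist the 1 AD1 OE library had 2.18 CPM and 3 Control libraries averaged 2.55 CPM, and among those with Y-linked transcripts the means were 1.65 and 2.29 CPM.

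**Figure D2:**
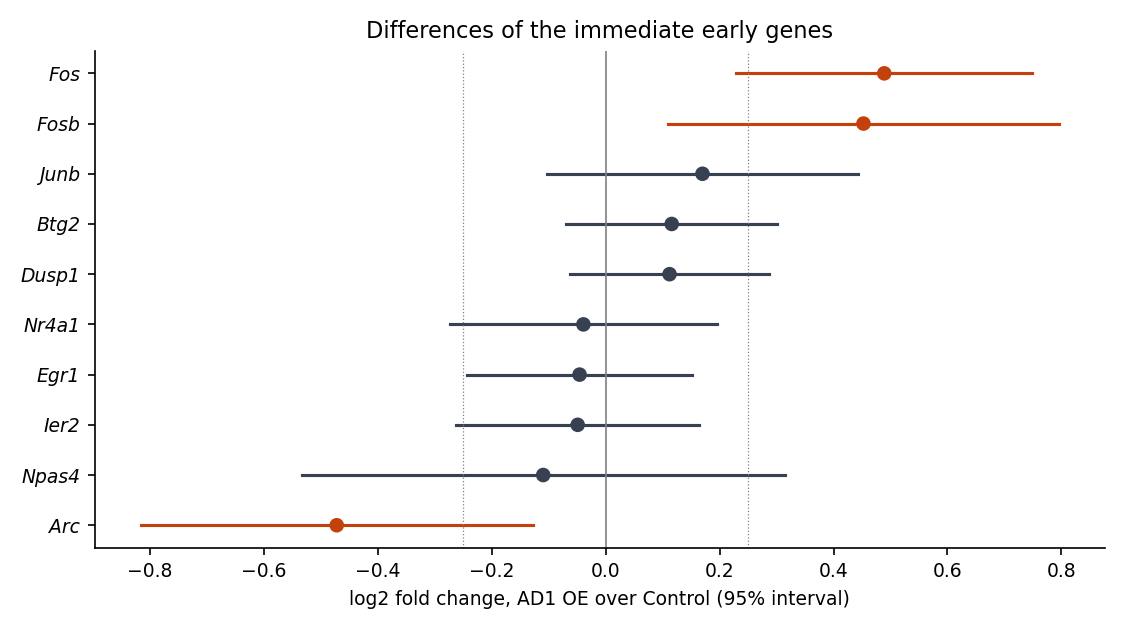
Log2 fold change of AD1 OE over Control (x axis) for the 10 immediate early genes, with points at the edgeR estimate and lines for the 95% interval. Orange marks the genes without overlap of the groups (Fos 0.49, Fosb 0.45, Arc -0.47), grey the others, and dotted lines the limits of 0.25 in the call rule.

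Of the 10 genes, all but Nr4a1 lay in the lower part of the expression range of tested genes. Mean CPM over the 8 libraries ranged from 1.64 for Fosb to 43.2 for Nr4a1, which put Nr4a1 at percentile 67.4 of the tested genes. The next, Dusp1, stood at percentile 44.8 and Fos at percentile 27.2. Divided by exon length, so that genes can be compared, Nr4a1 stood at 12.3 ± 1.56 CPM per kb (SD, n = 8), Ier2 at 6.43 ± 0.673, Dusp1 at 4.59 ± 0.408 and Btg2 at 4.27 ± 0.382. Below them came Junb at 3.13 ± 0.452 CPM per kb, Egr1 at 2.78 ± 0.257 and Fos at 1.75 ± 0.365. Arc at 0.699 ± 0.152, Npas4 at 0.573 ± 0.120 and Fosb at 0.263 ± 0.0539 CPM per kb were lowest. In this order the ranges of neighbouring genes over the 8 libraries overlapped for Dusp1 and Btg2, Btg2 and Junb, Junb and Egr1, and Arc and Npas4, and were apart elsewhere.

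No library stood far apart in the summed level of the immediate early genes, a sum to which Nr4a1 contributes most. A level shared by all 8 libraries cannot be seen in a comparison among them. By gene, AD1 OE replicate 3 was above its group mean for 8 of the 10 members and Control replicates 1 and 4 for 7 each. Control replicate 3 was above its group mean for 2, and the remaining libraries for 4 or 5. Summed over the 10 genes, the libraries held between 101 and 117 CPM in AD1 OE and between 100.2 and 120.1 CPM in Control. The highest library of a gene exceeded its lowest by 1.29-fold for Egr1, 1.31-fold for Dusp1 and 1.35-fold for both Ier2 and Btg2. The range was widest for Npas4 at 2.05-fold and Arc at 1.99-fold. AD1 OE replicate 2 was the highest library for 3 members (Fos, Fosb and Nr4a1) and the lowest for another 3 (Arc, Npas4 and Ier2), and Control replicate 1 was the highest for Egr1, Arc and Ier2. Control replicates 2 and 3 were each the lowest for 3.

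Spread within groups, as the SD of log2 CPM, ran from 0.122 for Dusp1 and 0.128 for Btg2 to 0.319 for Npas4. Genes were compared within bands of 1 to 10 and 10 to 100 CPM, and ranks depend on the place in the band. In the upper band the 4 members were among the more variable. Of these, Btg2, Egr1 and Dusp1 lay near its lower edge, at 11.7, 12.5 and 15.2 CPM, where counting error is larger. Ier2, at 9.79 CPM, lay near the upper edge of the lower band. Fosb, Arc and Npas4, at 1.64, 2.14 and 2.37 CPM, lay in the low part of that band. Nr4a1, with an SD of 0.199, exceeded 96.8% of the 8502 tested genes between 10 and 100 CPM, Egr1 (0.142) 88.8%, Btg2 83.9% and Dusp1 81.8%, where the median SD was 0.0796. Counting error accounts for an SD of only 0.0415 for Nr4a1. For Egr1 it accounts for 0.0770, for Btg2 0.0802 and for Dusp1 0.0702, all near the median SD of the band. Among the 4518 genes between 1 and 10 CPM (median SD 0.189), Npas4 exceeded 85.5%, Junb 60.4%, Arc 59.3%, Fosb 41.1%, Ier2 32.7% and Fos 32.6%. At these levels counting error is large, with an SD of 0.217 for Fosb, more than the 0.169 observed, and of 0.136 for Fos against 0.152 observed.

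**Figure D3:**
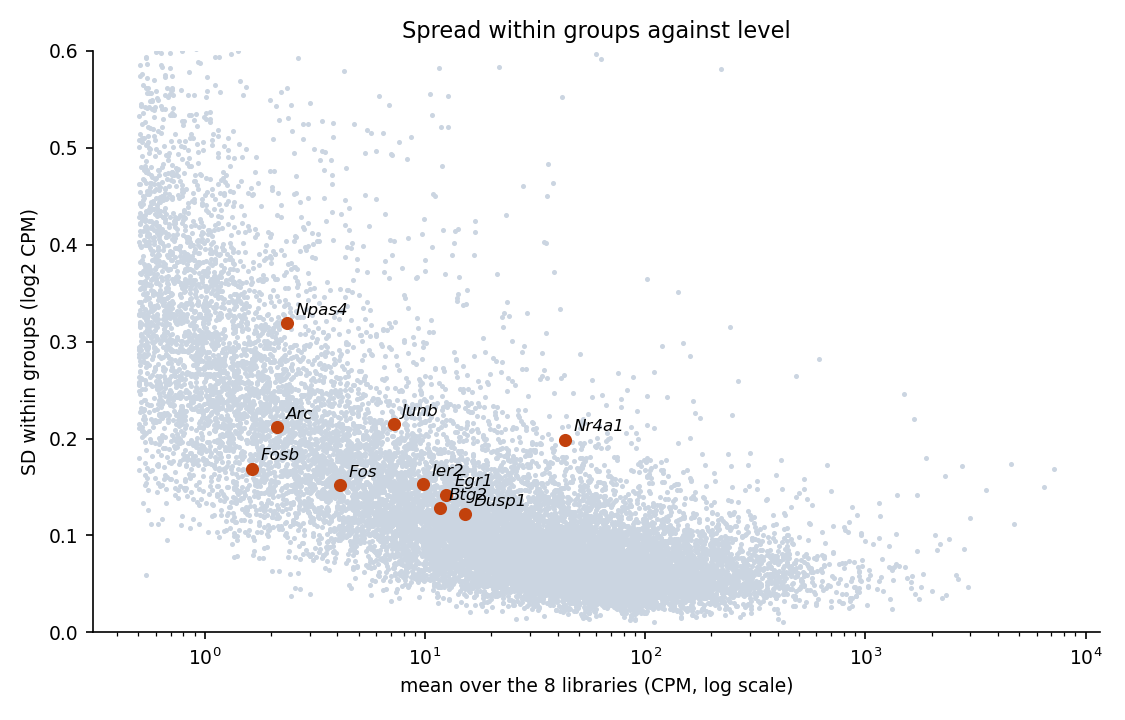
SD of log2 CPM within groups (y axis) against mean CPM over the 8 libraries (x axis, log scale) for tested genes above 0.5 CPM (grey) and the 10 immediate early genes (orange). Genes with an SD above 0.6 fall outside the plot. Nr4a1 (SD 0.199 at 43.2 CPM) lies near the upper edge of the cloud, and Fos and Fosb lie inside it. Npas4 (0.319 at 2.37 CPM) exceeds 85.5% of the tested genes between 1 and 10 CPM.

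Deviations from the group means were shared by some members and not by others. Over the 8 libraries, which share tissue piece, preparation and depth across genes, Pearson's r between pairs of members was highest for Fos and Egr1 (0.897), Egr1 and Nr4a1 (0.881) and Ier2 and Dusp1 (0.716), and lowest for Fosb and Arc (-0.70). It was above 0 in 23 of 45 pairs, with a median of 0.02. Ier2 followed the average of the other 9 members most closely (r = 0.816) and Npas4 ran against it (r = -0.49). Scaled to the spread of each gene and averaged over the 10, the deviation was 0.609 SD in Control replicate 1, 0.426 in AD1 OE replicate 3 and 0.319 in Control replicate 4, and lowest in Control replicate 3 at -0.513. Of the 3 upper libraries, 2 were those highest in spinal cord genes and 1 that highest in skeletal muscle genes. They also led other marker sets within their groups. AD1 OE replicate 3 was the highest AD1 OE library in every set except glia and erythroid cells. Control replicate 1 was the highest Control library for glia, macrophages, erythroid cells and skeletal muscle, and Control replicate 4 for mural cells and fibroblasts. The part of these tissues in the spread was not tested.

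Among 15508 other genes, the 8 with deviations most like the members' average were Atp1b2 (r = 0.988), Sox2 (0.986), Cdh22 (0.974), Hspg2 (0.971), 2900079G21Rik (0.966), Slc12a5 (0.964), Slc32a1 (0.963) and Tbx15 (0.962), over 8 libraries. Sox2 is a transcription factor of glial progenitors, Atp1b2 a sodium pump subunit common in glia, and Hspg2 the basement membrane protein perlecan. Slc32a1, the vesicular transporter of GABA and glycine, and Slc12a5, a neuronal chloride exporter, are typical of central inhibitory circuits. None of the 8 is an immediate early gene. With so many genes and 8 libraries, high values of r arise readily, and 16.9% of the genes compared exceeded 0.5. Of 90 related genes, 16 exceeded 0.5.

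The related genes were 96 genes in 6 lists, of which 93 could be tested, and 5 of them were called. AP-1 partners held 0 called of 7 tested, with a median log2 fold change of -0.05. Their most abundant members, Jun (63.1 ± 4.22 CPM in AD1 OE, 65.3 ± 5.48 in Control) and Jund (23.6 ± 2.6 and 25.6 ± 3.18), overlapped. Egr and Nr4a relatives also held 0 of 6, with a median of -0.02. Within that list, Nr4a2 (Nurr1), a nuclear receptor closely related to Nr4a1, was 9.39 to 10.9 CPM in AD1 OE and 7.87 to 8.80 CPM in Control. The groups did not overlap, with a log2 fold change of 0.27 ± 0.08 (adjusted p 0.0711, edgeR). Nab1 and Nab2, corepressors of Egr proteins, were 24.7 and 26.2 CPM and 18.1 and 18.1 CPM in AD1 OE and Control, respectively.

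The 28 other immediate early and feedback genes contained 0 called, with 19 log2 fold changes above 0 and a median of 0.05. Klf6 was 90.9 ± 4.82 CPM in AD1 OE and 87.7 ± 2.27 in Control, and the clock gene Per1 62.3 ± 4.12 and 56.5 ± 4.69. Dusp5, a nuclear phosphatase of MAP kinases, was 9.89 to 10.7 CPM in AD1 OE and 11.1 to 11.9 CPM in Control, without overlap (log2 fold change -0.14 ± 0.06, adjusted p 0.237). Read beside the members, 0 of 41 tested genes in these 3 lists of fellow early genes was called by edgeR, DESeq2 or limma-voom, where edgeR called 2.57% of all genes, and 4 had an unadjusted p under 0.05 in edgeR (18.6% of all genes).

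The 5 called genes, set against 2.57% called over all genes, were 3 effectors and 2 upstream signalling genes, and whether lists differ in their share was not tested. The lists were chosen with earlier results of these data known, so shares set beside those of all genes are descriptive only. Of 17 activity-regulated effectors, 1 was called higher and 2 lower, with a median of -0.02. Scg2, the secretogranin of dense-core vesicles, fell to 161 ± 11.1 CPM in AD1 OE from 212 ± 10.3 CPM in the Control libraries (log2 fold change -0.39 ± 0.05, adjusted p 0.000542, edgeR). Plk2, a kinase of activity-dependent synapse weakening, fell from 145 ± 5.88 to 118 ± 6.33 CPM (log2 fold change -0.30 ± 0.04, adjusted p 0.00140). Cdkn1a, the cell cycle inhibitor p21, rose from 79.9 ± 2.7 to 96.1 ± 6.17 CPM (log2 fold change 0.27 ± 0.05, adjusted p 0.00484), just inside the threshold. In all, 6 of the 17 had groups that did not overlap, against 13.0% of all tested genes. Another 3 genes beside those called were among them and were not called by edgeR, though DESeq2 called Nrn1 and Homer1. Nrn1, encoding neuritin, was 197 to 248 CPM in AD1 OE and 255 to 273 CPM in Control (adjusted p 0.0255). Bdnf, the neurotrophin, was 21.0 to 24.5 and 25.1 to 27.8 CPM (adjusted p 0.182). Homer1, the postsynaptic scaffold with an activity-induced short form, was 33.5 to 37.5 and 27.9 to 31.2 CPM (adjusted p 0.0116). Rgs4, the most abundant of the list, overlapped at 955 ± 92.5 and 869 ± 57.4 CPM.

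Of 24 upstream kinases and transcription factors, 1 was called higher and 1 lower, with a median of -0.01. Mef2c, an activity-regulated MADS box factor, rose from 79.9 ± 6.37 to 104 ± 4.12 CPM (log2 fold change 0.38 ± 0.05, adjusted p 0.000999). Camk4, a nuclear calcium/calmodulin kinase that phosphorylates CREB, was 14.2, 13.2, 10.6 and 13.6 CPM in AD1 OE replicates 1 to 4 and 17.9, 22.5, 20.4 and 21.4 CPM in Control replicates 1 to 4. It fell by 0.67 ± 0.10 on the log2 scale (adjusted p 0.00112), the largest difference among the tested genes of this list. The MAP kinase gene Mapk3 was 479 ± 6.40 CPM in AD1 OE and 463 ± 10.6 in Control and overlapped between the groups, and Map2k1, a kinase upstream of it, was 114 to 119 CPM in AD1 OE and 121 to 134 CPM in Control (log2 fold change -0.12, adjusted p 0.134). These calls varied with the libraries. Without Control replicate 2, Camk4, Plk2 and Cdkn1a were no longer called, and Cdkn1a kept its call only without AD1 OE replicate 4. Plk2 also lost its call without AD1 OE replicate 2 and without Control replicate 3. Scg2, Plk2 and Cdkn1a were not called without Control replicates 1 and 4 together, and a fit with the sex score called only Camk4. Among the related genes named so far, several share exon bases with a gene on the opposite strand. These are Camk4, Cdkn1a, Nrn1, Bdnf, Dusp5, Jun, Jund and Nab2, and the uncertainty stated for Junb applies to them too.

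**Figure D4:**
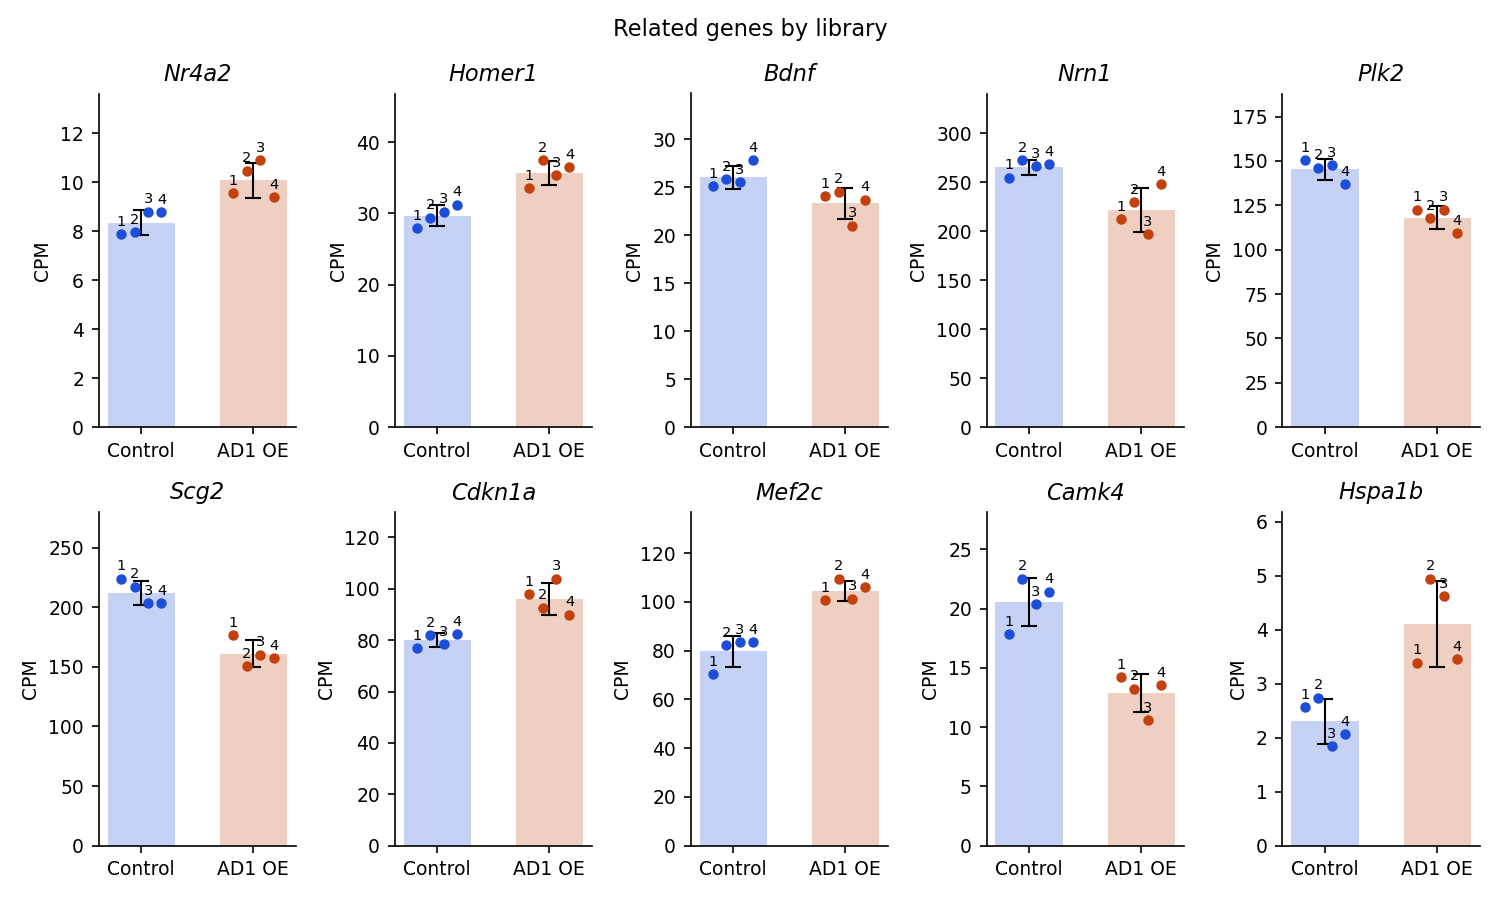
CPM (y axis, from 0 in each panel) of 10 related genes in Control (blue) and AD1 OE (orange) libraries, with replicate numbers, group means as bars and SD as error bars. Scg2, Plk2 and Camk4 were called lower and Cdkn1a and Mef2c higher in AD1 OE. The groups of the other 5 do not overlap, and edgeR did not call these genes, though DESeq2 called Nrn1, Homer1 and Hspa1b.

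Heat shock genes respond to protein damage and to handling of tissue. Of 11 tested, 0 were called in edgeR, against 2.57% of all genes. An unadjusted p under 0.05 in edgeR was reached by 2, against 18.6% of all genes. Of their log2 fold changes 1 was above 0, and the median was -0.08. Hspa8 (411 ± 30.9 and 437 ± 4.84 CPM) overlapped between AD1 OE and Control, as did Hsp90aa1 (169.5 to 209.5 and 191.9 to 210.4 CPM). The exception in sign was Hspa1b, encoding inducible Hsp70, at 3.39, 4.95, 4.63 and 3.45 CPM in AD1 OE replicates 1 to 4 and 2.56, 2.74, 1.85 and 2.06 CPM in Control replicates 1 to 4. All AD1 OE libraries were above all Control libraries (log2 fold change 0.82 ± 0.17, adjusted p 0.0127, edgeR), and DESeq2 called it. Hspa1b has a near-identical copy, Hspa1a, so reads may have been split between them. Hspa1a, added here after its values were seen for that reason, was 1.11 to 2.10 CPM and 1.21 to 1.96 CPM (log2 fold change -0.12, adjusted p 0.833).

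**Figure D5:**
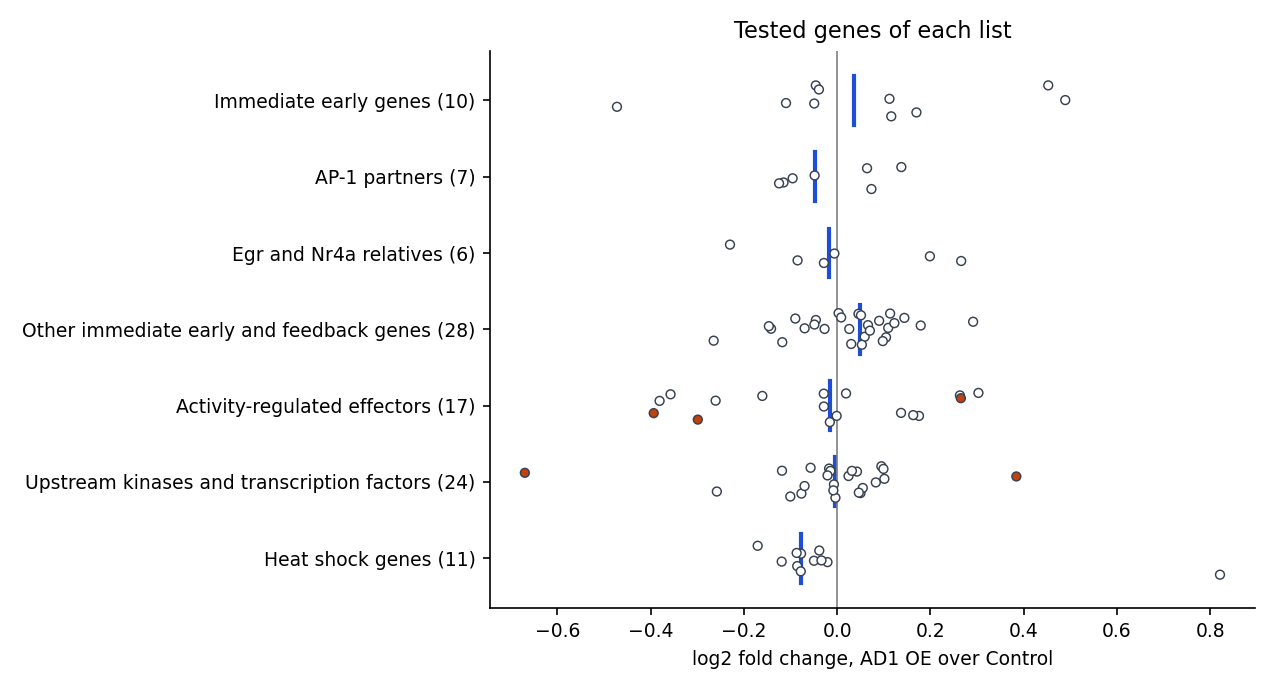
Log2 fold change of AD1 OE over Control (x axis) for each tested gene of the immediate early genes and the 6 related lists, with the number tested in brackets. Filled points are called genes, open points are not called, and blue lines are list medians, which lie between -0.08 and 0.05. Vertical scatter within a list carries no value.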

How the data were processed

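DRG were dissected in cold PBS, RNA was extracted from TRIZOL, and libraries were made with a stranded messenger RNA kit. The authors aligned reads to GRCm39 with STAR 2.7.8a, counted them with featureCounts 2.0.1 and deposited raw counts per Ensembl gene, 1 file per library, neither normalized nor filtered. Each file held 55414 IDs and 0 lines naming no gene; GENCODE M21 gave symbols for 52081.

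Libraries were grouped by title. Counts were filtered by filterByExpr, scaled by TMM and compared with edgeR 4.0.16 in R 4.3.3 (quasi-likelihood F test, genotype as only term, adjustment over 17721 genes). Thresholds (0.005, 0.25) follow the study, which used DESeq2; version 1.42.0 was an alternative here, as was limma 3.58.1. SDs and correlations use log2 CPM with a prior count of 2, centred on group means. Exon lengths came from GENCODE M21 on GRCm38. The sex score set 4 Y-linked genes against Xist on the log2 scale (Kdm5d, Uty, Ddx3y and Eif2s3y). Totals of 22339059 to 44025625 counts limit precision for genes of few counts; reads carried no molecular identifiers. Replicates differed beyond counting noise in every pair.

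Genes named are the 10 members and, from each related list, called genes, the 2 most abundant, and those with groups that did not overlap at an unadjusted p under 0.05. A gene that this rule would name is not reported here. Members and lists were chosen with earlier results of these data known. Alternatives comprised other tools, scalings, filters and thresholds, the replicate number, sex, and leaving out libraries. Methods were tested on simulated data.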

Additional observations from a re-analysis of the deposited data

Results flagged for a closer look

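Over the 33 genes that the naming rule selects, 66 groups of 4 libraries were checked for a library far from the other 3 (Dixon's criterion at 95%, which chance meets in about 1 of 20 groups), and 2 met it. Npas4 in Control replicate 3 was 3.10 CPM, against 2.21 to 2.29 CPM in the other Control libraries. Mef2c in Control replicate 1 was 70.3 CPM, against 82.2 to 83.4 CPM in the other Control libraries.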

How the results depend on the processing

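Over 21 alternatives, 0 members were called except at an adjusted p under 0.05 without a fold limit, where the count was 1 (Fos). Of 210 values of single members, 11 changed sign, in 4 members whose difference was near 0; the cause was not tested. Without Control replicates 1 and 4, an alternative chosen after seeing the data, log2 fold changes were 0.067 for Egr1, 0.086 for Nr4a1 and 0.082 for Ier2. Ier2 was 0.013 with the sex score and 0.0046 with sex as a 2-level term, also chosen after seeing the data. Leaving out 1 library gave -0.11 to 0.012 for Egr1 (positive without Control replicate 1), -0.12 to 0.049 for Nr4a1 (0.033 without Control replicate 1, 0.049 without AD1 OE replicate 4), -0.098 to 0.038 for Ier2 (positive without Control replicate 1) and -0.26 to 0.029 for Npas4 (0.029 without AD1 OE replicate 2, 0.017 without Control replicate 3).

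Called related genes numbered 8 with DESeq2, with no filter and at an adjusted p under 0.05, 0 at a log2 fold over 1, 1 with the sex score, 2 with the 2-level term, 2 without Control replicates 1 and 4, and 2 to 5 with 1 library left out. All genes called numbered 455, 747 with no filter, 1161 and 129 at those thresholds, 254 without Control replicates 1 and 4, and 289 (without AD1 OE replicate 1) to 420 with 1 library left out. DESeq2 called 658.

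Deviations of same-numbered libraries correlated at -0.01, -0.05, -0.04 and 0.31, above 0.1 only for replicate 4, so numbers were not taken as pairs. With the replicate block, 348 genes, 4 related genes and 0 members were called, and the adjusted p of Fos was 0.0858. Depth limits Fosb, Arc and Npas4 most.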
